A study of Mus musculus with 12 samples.

Results

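The mitochondrial genome transcripts are the RNAs made from the small circular DNA inside mitochondria: 13 mRNAs, 2 rRNAs and 22 tRNAs. They were taken as every gene of the count table whose symbol starts with mt-, which gave 37 of 37748 genes. RNA was sequenced from the gastrocnemius, a calf muscle, of 12 mice aged 13 weeks, with 3 mice and 1 library per mouse in each of 4 groups. Control mice were ACTA1-MCM/+, which carry the tamoxifen-inducible Cre recombinase MerCreMer under a skeletal muscle actin promoter, and are labelled as given no tamoxifen (TMX). FLExD mice were FLExDUX4/+, which carry a conditional transgene for DUX4-fl, the transcription factor whose misexpression causes facioscapulohumeral muscular dystrophy, without Cre and without TMX. The labels attach the words mild pathology to this group although it carries no Cre. The moderate and the severe mice carried both transgenes (FLExDUX4/+;MCM/+). Moderate mice had 1 TMX injection of 5 mg/kg and severe mice had 2 of 10 mg/kg on consecutive days, and muscles were taken on day 9. Recombination in these mice is mosaic, so a muscle is a mixture of fibers with and without DUX4-fl. By the labels only the bi-transgenic groups received TMX, so the transgene combination and TMX cannot be told apart in any comparison with control.

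In mitochondria both DNA strands are transcribed in long stretches by the RNA polymerase POLRMT with the factors TFAM and TFB2M. The tRNAs lie between most of the other genes and are cut out, which frees the rRNAs and mRNAs. Most of the mRNAs then receive poly(A) tails. The mRNAs encode only subunits of the respiratory chain and of ATP synthase, while all other subunits of these complexes come from nuclear genes. Skeletal muscle, above all its oxidative fibers, is rich in mitochondria. Of the mRNAs, 7 encode subunits of complex I (NADH dehydrogenase), 1 of complex III (cytochrome bc1), 3 of complex IV (cytochrome c oxidase) and 2 of ATP synthase.

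The genes adjoin or overlap one another, which bears on how reads of 50 bases can be assigned, so the ends that matter are shown here, 5′ to 3′, from the GENCODE M21 transcripts (GRCm38, the build of mm10). Of the 13 mRNAs, 8 end in TAA, 2 in TAG and 3 in a lone T, where the stop codon is completed only by the poly(A) tail. The libraries were made from poly(A)-selected RNA, so the tail also bears on which molecules were sequenced. Capitals mark the last codon, or the single base left of it, in 3 mRNAs without an encoded stop codon and in mt-Co1.
mt-Co3, chrM:9367-9390, + strand: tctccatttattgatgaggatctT
mt-Nd4, chrM:11521-11544, + strand: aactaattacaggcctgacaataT
mt-Cytb, chrM:15265-15288, + strand: acaaaatactaaaattatatccaT
mt-Co1, chrM:6849-6872, + strand: ccaacctatgtaaaagtaaaaTAA

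A single tRNA gene, mt-Ts1 (serine), overlapped the end of mt-Co1 by 3 bases on the opposite strand. It is shown because it held most of the tRNA counts, and its capitals mark the shared bases. The mt-Co1 mRNA is known to run on through the DNA opposite this tRNA, and whether the counting used strand is not given in the sources used here, so reads of the mt-Co1 mRNA and of mt-Ts1 cannot be told apart.
mt-Ts1, chrM:6870-6938, - strand: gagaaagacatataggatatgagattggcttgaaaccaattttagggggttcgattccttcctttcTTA
The same holds for mt-Nd6, the only mRNA on the - strand, whose end shares 14 bases with that of mt-Nd5. On 1 strand, mt-Atp8 and mt-Atp6 share 43 bases, printed next, and mt-Nd4l and mt-Nd4 share 7, and both pairs are known to be carried on common mRNAs.
mt-Atp8 and mt-Atp6 overlap, chrM:7927-7969, + strand: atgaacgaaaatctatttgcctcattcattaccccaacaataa

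The libraries held between 23796902 and 29136403 counts each, and the severe libraries were the smallest. Wfdc3, a gene that DUX4-fl switches on in mouse muscle, had 1 to 8 counts in each control and FLExD mouse, 2005 to 2910 in moderate mice and 2776 to 4790 in severe mice. Esr1, whose hormone-binding part is built into MerCreMer, had 8762 to 17274 counts in control mice, 554 to 786 in FLExD mice, 3041 to 3786 in moderate mice and 1475 to 1586 in severe mice. Wfdc3 was thus high only in mice given TMX, and Esr1 was lowest in the mice without MerCreMer. TMM factors, which rescale each library so that most genes do not differ, were 0.706 to 0.724 in control, 0.708 to 0.760 in FLExD, 1.06 to 1.13 in moderate and 1.69 to 1.87 in severe mice. Because these factors differ so much between groups, each change is given below on the TMM scale and, where it matters, relative to the library total.

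Mitochondrial transcripts took a smaller share of the library in severe muscle than in any other group. They took 28.8%, 34.5% and 25.3% of the counts in the 3 control mice, 32.0%, 36.6% and 27.0% in FLExD mice, 26.6%, 29.1% and 27.7% in moderate mice and 19.2%, 20.5% and 19.9% in severe mice. All severe mice lay below all other mice, while the control, FLExD and moderate ranges overlapped. This overlap depends on the total: with the 20 largest other genes left out of it, moderate mice (34.7% to 37.6%) lay below control mice (39.5% to 47.4%). The group means were 29.5% ± 4.66, 31.9% ± 4.78, 27.8% ± 1.23 and 19.9% ± 0.651 (SD, n = 3 mice each). A sum over the members was not tested. Left out in turn, a control mouse turned the difference between moderate and control: it ran from -3.86 percentage points without mouse 1349 to 0.75 without mouse 1246.

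Most of these counts were rRNA. The rRNAs of the small ribosomal subunit (mt-Rnr1, chrM:70-1024) and the large one (mt-Rnr2, chrM:1094-2675) together took 25.3%, 30.0% and 22.2% of counts in control mice and 17.3%, 18.4% and 17.9% in severe mice. The 13 mRNAs took 3.44%, 4.41% and 3.08% in control mice, 4.26%, 4.84% and 3.43% in FLExD mice, 2.92%, 3.52% and 3.04% in moderate mice and 1.85%, 2.09% and 1.93% in severe mice. Severe mice were the lowest for both classes with no overlap, and moderate mice overlapped control mice. The 22 tRNAs took 0.0429% to 0.0599% in control and 0.0250% to 0.0288% in severe mice.

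**Figure D1:**
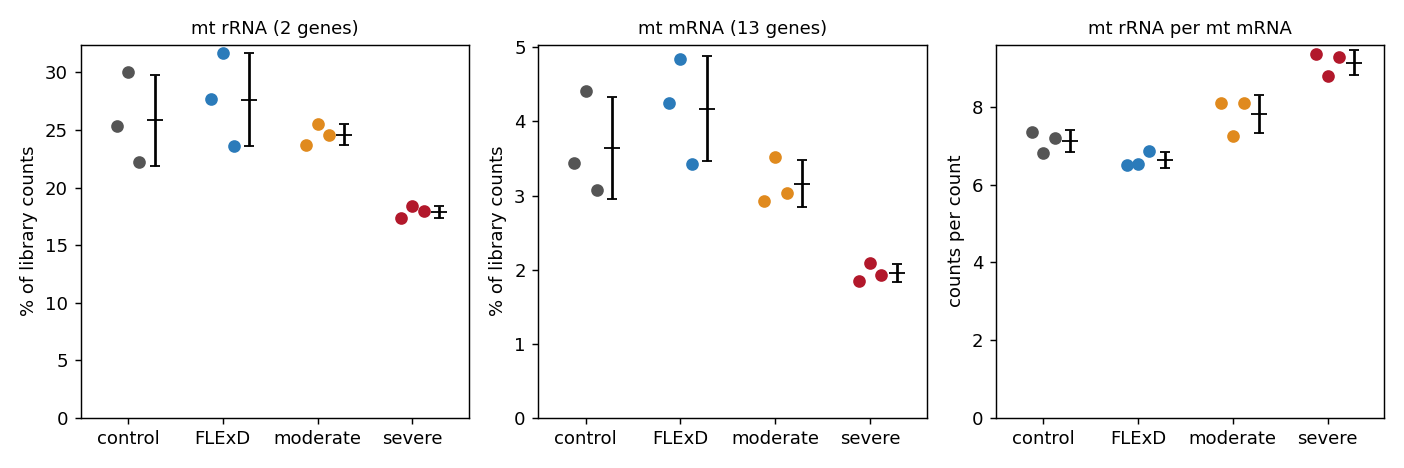
Share of library counts (%) taken by the 2 mt rRNAs and the 13 mt mRNAs, and rRNA counts per mRNA count, for each mouse (points) with the group mean and SD (bars, n = 3). Severe mice were lowest in both shares (17.3% to 18.4% and 1.85% to 2.09%) and highest in the ratio (8.79 to 9.35).

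The balance between the classes differed between groups, and this ratio does not depend on any scaling between libraries. There were 7.35, 6.82 and 7.21 rRNA counts per mRNA count in control mice, 6.50, 6.54 and 6.88 in FLExD mice, 8.10, 7.26 and 8.09 in moderate mice and 9.35, 8.79 and 9.29 in severe mice. All severe mice lay above all moderate mice, and 1 moderate mouse (7.26) lay below the highest control mouse. The large rRNA alone took 75.8% to 76.4% of mitochondrial counts in control, 75.0% to 75.9% in FLExD, 76.8% to 78.0% in moderate and 78.0% to 80.0% in severe mice. The libraries were made by poly(A) selection, so this is the ratio among the RNAs captured by it. How well each class was captured was not tested.

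Of the 37 members, 35 passed the filter on low counts: all mRNAs and rRNAs and 20 tRNAs. The others were mt-Tl1 (leucine, 0.88 to 12.56 counts per mouse) and mt-Td (aspartate, 1 to 10 counts). A gene was called where edgeR's quasi-likelihood test gave a Benjamini-Hochberg adjusted p under 0.05 over 16679 genes and the log2 fold change was at least 0.5 in size. In FLExD against control no member was called (0 of 35, against 0.00600% of all genes called either way). FLExD mice carry the conditional transgene and also lack MerCreMer, so these differences cannot be told apart in this comparison. The unadjusted p of edgeR's quasi-likelihood test was under 0.05 for 1 of 35, mt-Tc (cysteine, log2 fold change 0.36, adjusted p = 1), and DESeq2 and limma also called 0. The members' median log2 fold change was 0.14 against -0.00 over all genes. Their 95% intervals were wide: that of mt-Co1 ran from -0.23 to 0.66. The groups did not overlap for 2 members (mt-Tw, tryptophan, and mt-Tl2, leucine), where 8.60% of all genes did not.

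In moderate mice 28 of 35 members were lower than in control mice and 0 were higher, where 17.0% of all genes were called lower. All 13 mRNAs, both rRNAs and 13 of 20 tRNAs were among them. The median log2 fold change was -0.75 over the members and 0.04 over all genes. Moderate and control mice did not overlap for 28 members, among them all mRNAs and rRNAs, and for 61.0% of all genes. The 7 tRNAs not called were mt-Ti, mt-Tq, mt-Tw, mt-Th, mt-Ts2, mt-Tl2 and mt-Tp, with log2 fold changes from -0.70 to -0.14. Relative to the library total, without TMM factors, only 3 members were called lower, all tRNAs, against 4.51% of all genes, and the median was -0.15. Without control mouse 1246 or without moderate mouse 1236 the count was 21.

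In severe mice all 35 members tested were lower than in control mice, where 27.9% of all genes were called lower. The median log2 fold change was -2.14 over the members and 0.08 over all genes, and the groups did not overlap for any of the 35, against 75.0% of all genes. The log2 fold changes of the mRNAs ran from -2.80 to -1.99, with a median of -2.30, and the tRNAs had a median of -1.93. Without TMM factors, 25 of 35 were still called lower (13 mRNAs, 2 rRNAs and 10 tRNAs) against 6.42% of all genes, with a median of -0.83 over the members and 1.39 over all genes. Severe mice were also lower than moderate mice for 30 members (13 mRNAs, 2 rRNAs and 15 tRNAs), where 18.8% of all genes were called lower. The median there was -1.31, and 31 members did not overlap between the groups, against 61.3% of all genes. Without TMM factors 21 of 35 members were called in severe against moderate mice. Of these classes, 12 of 13 mRNAs were lower and 0 of 2 rRNAs were called. On that scale 823 of 16679 genes were called lower and 9648 higher. The comparisons of moderate and of severe mice share the same 3 control mice.

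**Figure D2:**
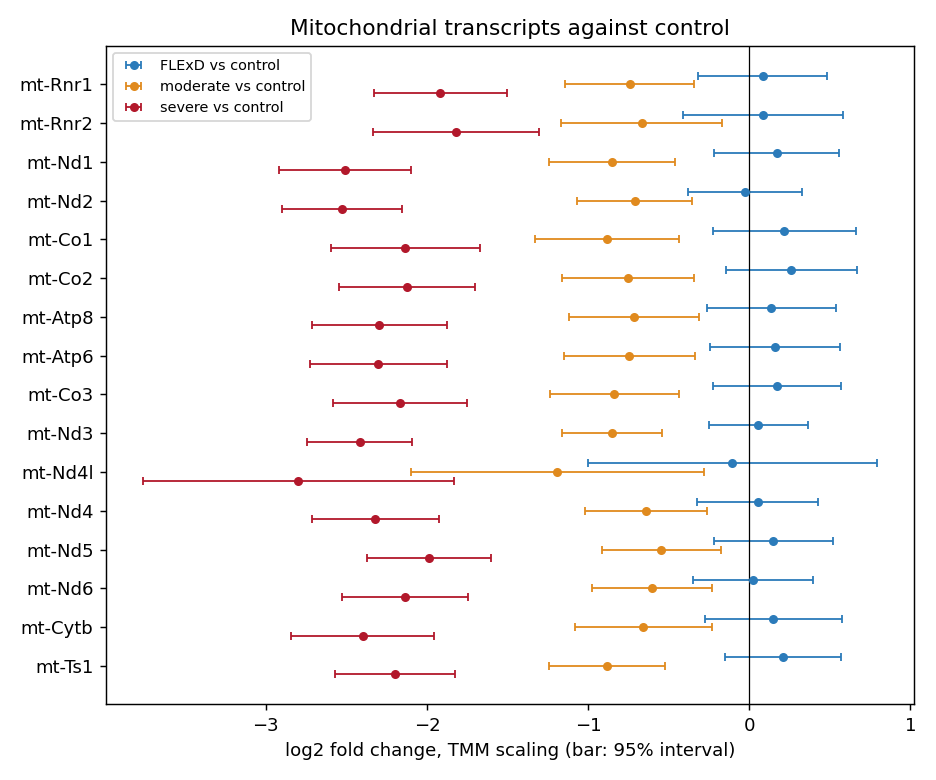
Log2 fold change on the TMM scale against control (points) with its 95% interval (bars) for 13 mt mRNAs, 2 mt rRNAs and mt-Ts1 in FLExD, moderate and severe mice. The severe values run from -2.80 (mt-Nd4l) to -1.82 (mt-Rnr2), and every FLExD interval includes 0. Relative to the library total the moderate value of mt-Nd5 turns to 0.06, and relative to the mt mRNA pool 10 moderate and 7 severe values of the mRNAs and rRNAs turn positive.

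The rRNAs, which form the core of the mitochondrial ribosome, had smaller severe log2 fold changes than every mRNA, a difference that was not called in the fit relative to the mt mRNA pool. The level of mt-Rnr2 (ENSMUSG00000064339) in CPM (TMM-scaled counts relative to the size of the library) was 312134, 364735 and 265710 in control mice, 339977, 392122 and 266963 in FLExD mice, 183834, 206997 and 202848 in moderate mice and 81069, 91691 and 94067 in severe mice. Control and FLExD mice overlapped, moderate mice lay below both, and severe mice lowest. The log2 fold change of mt-Rnr2 was -0.67 (SE 0.233, adjusted p = 0.0260) in moderate and -1.82 (SE 0.239, adjusted p = 8.95e-06) in severe mice, by edgeR's quasi-likelihood test with Benjamini-Hochberg adjustment. For mt-Rnr1 (ENSMUSG00000064337) the levels were 46729, 54031 and 40544 CPM in control, 51131, 55212 and 43329 in FLExD, 25650, 29588 and 29251 in moderate and 11856, 13651 and 11920 in severe mice, in the same order as mt-Rnr2. Its log2 fold changes were -0.74 in moderate and -1.92 in severe mice. Both rRNAs flip to 0.06 and 0.14 (moderate) and 0.28 and 0.37 (severe) when the summed mt mRNAs set the scale.

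Complex I takes electrons from NADH, and its 7 mitochondrial subunits include the mRNAs with the largest severe falls. The level of mt-Nd1 (ENSMUSG00000064341, chrM:2751-3707) was 2312, 2825 and 1944 CPM in control, 2691, 3100 and 2175 in FLExD, 1165, 1513 and 1242 in moderate and 352, 472 and 419 in severe mice. Moderate mice lay below all control and FLExD mice, and severe mice below all moderate mice. Its log2 fold change was -0.85 in moderate and -2.51 (SE 0.191, edgeR quasi-likelihood adjusted p = 3.31e-08) in severe mice. The neighbouring mt-Nd2 (ENSMUSG00000064345, chrM:3914-4951) had 1189, 1435 and 921 CPM in control, 617, 837 and 710 in moderate and 191, 215 and 209 in severe mice, again without overlap, and fell by 2.53 on the log2 scale in severe mice. The smallest severe change of an mRNA was that of mt-Nd5 (ENSMUSG00000064367, chrM:11742-13565), at 1486, 1839 and 1205 CPM in control, 887, 1125 and 1089 in moderate and 368, 381 and 393 in severe mice. It changed by -0.55 in moderate mice, a value that turned to 0.06 relative to the library total, and by -1.99 in severe mice. Of the other subunits, mt-Nd3, mt-Nd4 and mt-Nd6 fell by 2.42, 2.32 and 2.13 in severe mice. The severe direction of mt-Nd5 and mt-Nd6 turned (0.22 and 0.07) only relative to the mt mRNA pool.

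Complex III passes electrons to cytochrome c, and mt-Cytb (ENSMUSG00000064370, chrM:14145-15288) encodes its cytochrome b. Its level was 2252, 2955 and 1970 CPM in control, 2843, 3085 and 2035 in FLExD, 1327, 1852 and 1372 in moderate and 407, 506 and 449 in severe mice. The 3 ranges of control, moderate and severe mice did not overlap. Its log2 fold change was -0.66 in moderate and -2.40 in severe mice, and -1.74 (SE 0.203, edgeR quasi-likelihood adjusted p = 1.35e-05) in severe against moderate mice. The moderate value turns to 0.15 relative to the mt mRNA pool.

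Complex IV reduces oxygen, and its 3 mitochondrial subunits form the catalytic core. The level of mt-Co1 (ENSMUSG00000064351, chrM:5328-6872) was 20479, 25781 and 17686 CPM in control, 26179, 29580 and 18616 in FLExD, 10592, 12812 and 11235 in moderate and 4298, 5152 and 5109 in severe mice. FLExD mice overlapped control mice, and the moderate and severe groups stepped down without overlap. Its log2 fold change was -0.88 (SE 0.209, adjusted p = 0.00255) in moderate and -2.13 (SE 0.216, adjusted p = 6.05e-07) in severe mice by edgeR's quasi-likelihood test with Benjamini-Hochberg adjustment. For mt-Co2 and mt-Co3 the severe values were -2.12 and -2.17, close to mt-Co1. All 3 sit slightly above 0 (0.06, 0.07 and 0.02) relative to the mt mRNA pool in severe mice.

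ATP synthase makes ATP from the proton gradient, and mt-Atp8 and mt-Atp6 encode parts of its membrane domain. The level of mt-Atp6 (ENSMUSG00000064357, chrM:7927-8607) was 3217, 4163 and 2724 CPM in control, 3793, 4495 and 2990 in FLExD, 1731, 2299 and 2000 in moderate and 636, 740 and 674 in severe mice. The control, moderate and severe ranges did not overlap. Its log2 fold change was -0.74 in moderate and -2.30 in severe mice, and that of mt-Atp8 was -0.72 and close to -2.30, and both moderate values turn positive (0.07 and 0.10) relative to the mt mRNA pool. There were 21.4, 22.4 and 21.8 mt-Atp8 counts per 100 mt-Atp6 counts in control mice and 21.97, 21.6 and 22.5 in severe mice, which overlap.

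How far the members fell depends on what they are compared with. Without TMM factors the median of all genes moved by 0.65 in moderate and 1.39 in severe mice, so the members fell by about the same distance relative to other genes while their own values came nearer to 0. Relative to the library total the mRNA medians were -0.14 in moderate and -0.998 in severe mice. With limma on log2(TPM + 1) all 13 mRNAs were called lower in severe mice and none of 13 in moderate mice, with medians of -1.07 and -0.25. The severe fall of the mRNAs and rRNAs against control thus passed on the TMM, library-total and TPM scales. The moderate fall passed only with scaling factors (TMM, the RLE factors or DESeq2).

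**Figure D3:**
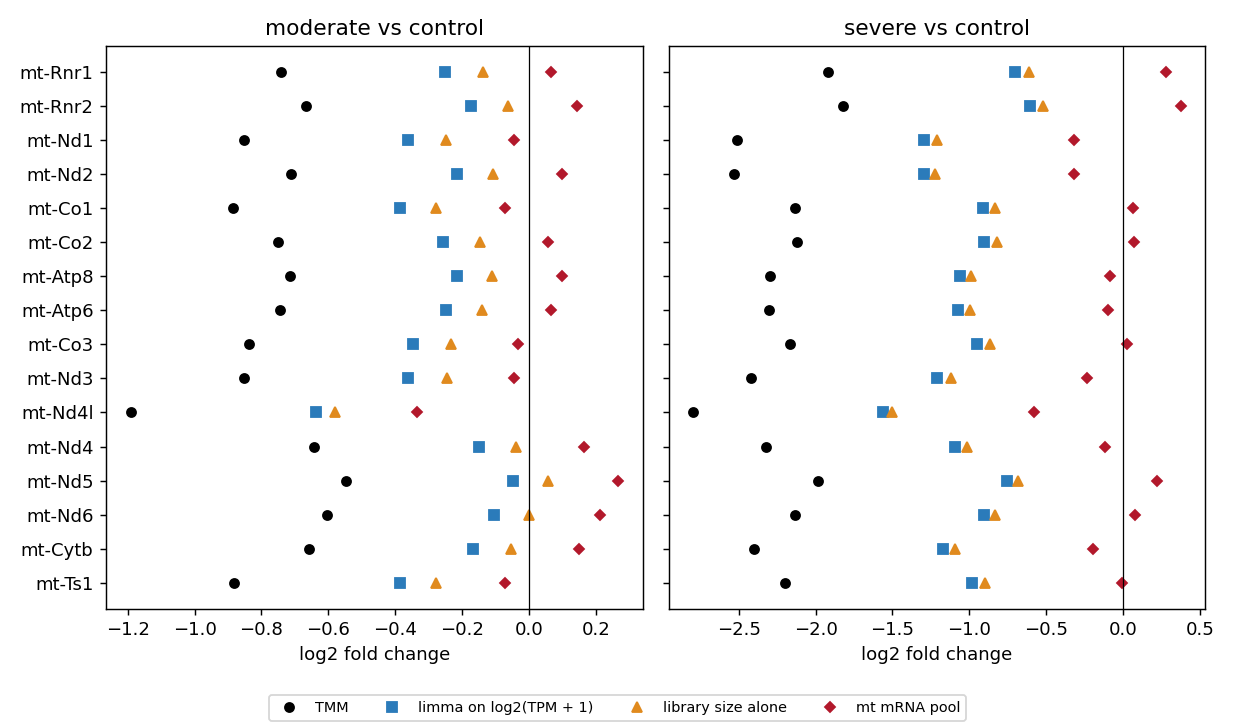
Log2 fold changes of the 13 mt mRNAs, 2 mt rRNAs and mt-Ts1 in moderate (left) and severe (right) mice against control, with 4 ways of scaling the libraries, 1 symbol each. In severe mice the TMM, TPM and library-total values are all negative, while 7 mRNA and rRNA values relative to the mt mRNA pool are positive. In moderate mice mt-Nd5 is at 0.06 relative to the library total and 10 values relative to the pool are positive.

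With the summed counts of the 13 mRNAs as the library size, differences among the members themselves are left. On that scale 0 of 35 members were called in FLExD or in moderate mice. In severe mice 2 were called lower, mt-Nd4l (log2 fold change -0.58, adjusted p = 0.0169) and mt-Tr (arginine, -1.53, adjusted p = 0.0233), by edgeR's quasi-likelihood test with Benjamini-Hochberg adjustment. The call of mt-Nd4l rests on how its reads were split with a nuclear copy, described further on. The tRNAs mt-Ty (tyrosine, 0.63), mt-Ts2 (serine, 0.96) and mt-Tt (threonine, 0.94) were called higher. On the same scale 2.48% of all genes were called lower and 90.1% higher, since most genes rose against the mt mRNA pool. Neither rRNA was called (mt-Rnr1 0.28, adjusted p = 0.347, and mt-Rnr2 0.37, adjusted p = 0.252, in the same edgeR quasi-likelihood test).

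The make-up of the mt mRNA pool shifted by little. mt-Co1 took 42.0%, 42.0% and 41.6% of mt mRNA counts in control mice, 41.0%, 39.3% and 39.2% in moderate mice and 43.3%, 43.0% and 44.8% in severe mice. Moderate mice lay below and severe mice above all control mice. FLExD mice, at 43.5%, 43.3% and 41.2%, overlapped both control and severe mice. Within complex I, mt-Nd1 took 4.74%, 4.60% and 4.57% in control mice and 3.54%, 3.94% and 3.68% in severe mice, without overlap. In contrast, mt-Nd5 took 3.05%, 2.99% and 2.84% in control, 3.43%, 3.45% and 3.80% in moderate and 3.71%, 3.18% and 3.45% in severe mice, so that both treated groups lay above control. The share of mt-Cytb was 4.61%, 4.81% and 4.64% in control, 5.13%, 5.68% and 4.78% in moderate and 4.09%, 4.22% and 3.93% in severe mice. Severe mice were lowest for mt-Cytb, and moderate and control mice overlapped. Complex I as a whole took 16.5% to 17.3% in control, 15.1% to 17.0% in FLExD, 17.5% to 18.4% in moderate and 15.1% to 15.7% in severe mice. Complex IV took 70.0% to 71.1%, 70.4% to 72.6%, 67.7% to 69.2% and 72.4% to 73.7%. These shares sum to 100% in each mouse, so a rise in 1 gene lowers the others. On the pool scale mt-Co1, mt-Nd1, mt-Nd5 and mt-Cytb did not pass the edgeR test, and of the mRNAs mt-Nd4l alone did.

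**Figure D4:**
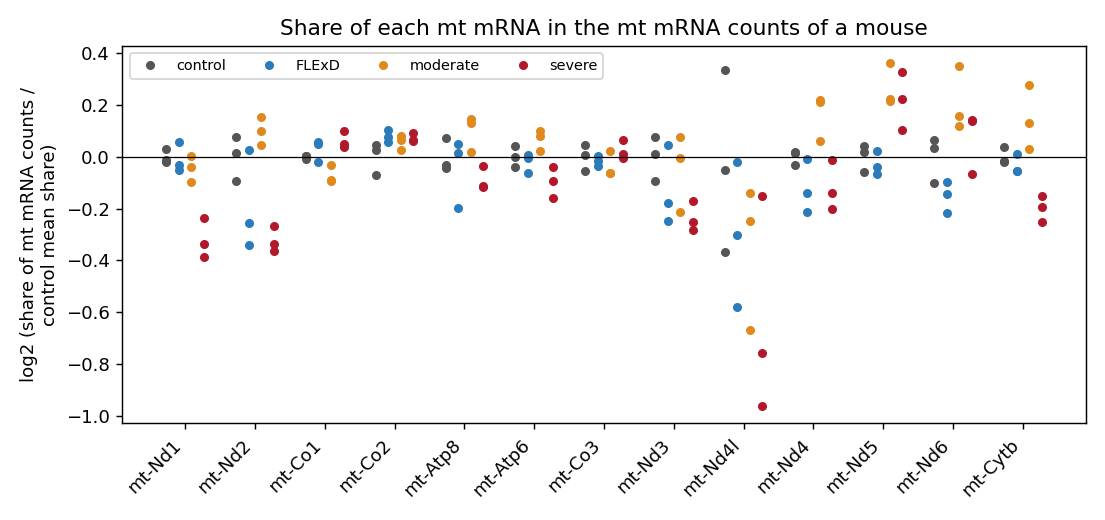
Each mt mRNA's share of the mt mRNA counts of a mouse, as log2 of its ratio to the control mean share, with 1 point per mouse and 1 color per group. mt-Nd1, mt-Nd2, mt-Nd3 and mt-Cytb sit below the control mice in severe mice, and mt-Nd5 sits above them in moderate and severe mice. For mt-Nd2 and mt-Nd3 the FLExD mice overlap the severe mice. mt-Nd4l scatters most among mice of a group.

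The values of mt-Nd4l (ENSMUSG00000065947), a small membrane subunit of complex I, are uncertain. A nuclear copy, the pseudogene Gm10222 (ENSMUSG00000067736, chr1:24612407-24612700), is 100% identical to it over 294 bases, and reads of 50 bases inside the shared stretch cannot be assigned to either. The gene is printed with its overlap with mt-Nd4 in capitals.
mt-Nd4l, chrM:9877-10173, + strand: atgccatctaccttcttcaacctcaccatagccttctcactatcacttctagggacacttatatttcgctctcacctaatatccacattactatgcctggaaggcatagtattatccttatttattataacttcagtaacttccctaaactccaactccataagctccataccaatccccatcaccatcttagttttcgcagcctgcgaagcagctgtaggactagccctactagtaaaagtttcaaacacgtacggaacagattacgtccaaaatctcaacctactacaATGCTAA
The authors' counting gave mt-Nd4l 52.2%, 66.7% and 42.4% of the counts of the pair in control mice, 54.4%, 60.0% and 35.9% in FLExD mice, 46.8%, 37.5% and 30.4% in moderate mice and 31.5%, 55.7% and 35.1% in severe mice. This split varied within every group, and the groups overlapped. The pair together had 3618, 5005 and 3407 counts in control mice, 3793, 4706 and 3626 in FLExD mice, 3302, 4418 and 3789 in moderate mice and 1491, 1709 and 1654 in severe mice. Summed, the pair changed by -0.63 in moderate and -2.37 in severe mice, where mt-Nd4l alone changed by -1.19 and -2.80, so its place as the mRNA with the largest fall depends on that split. Over the mt mRNA counts, the pair came to 0.384%, 0.392% and 0.380% in control and 0.338%, 0.336% and 0.350% in severe mice. Severe mice thus lay below control by much less than for mt-Nd4l alone on the pool scale. FLExD mice, at 0.310%, 0.341% and 0.387%, overlapped both control and severe mice. In all, 12 nuclear genes with at least 85% identity to a member over 50 bases or more were in the count table, and 8 others were not in it. Among the 8 were chr1 stretches with 99.7% to 100% identity to parts of mt-Co1, mt-Co2, mt-Co3, mt-Atp6, mt-Nd3 and mt-Nd4. Whether reads from these copies added to the members' counts was not tested.

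The tRNAs carry no long tail in their mature form and are short, so in these libraries their counts can come from longer precursors, and the assay does not tell the forms apart. mt-Ts1 held 81.4% to 87.1% of all mt tRNA counts in each mouse. Its level was 556, 719 and 502 CPM in control, 697, 807 and 550 in FLExD, 287, 351 and 325 in moderate and 109, 134 and 144 in severe mice, which stepped down without overlap after control and FLExD. Its log2 fold change was -0.88 in moderate and -2.20 (SE 0.174, edgeR quasi-likelihood adjusted p = 4.91e-08) in severe mice, and -1.32 in severe against moderate mice, where it turns to 0.07 relative to the mt mRNA pool. There were 2.71, 2.79 and 2.84 mt-Ts1 counts per 100 mt-Co1 counts in control mice, 2.66, 2.73 and 2.95 in FLExD, 2.71, 2.74 and 2.89 in moderate and 2.54, 2.59 and 2.82 in severe mice. All groups overlapped in this ratio, and mt-Ts1 and mt-Co1 are the overlapping pair printed above.

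The other tRNAs had few counts. The next highest was mt-Te (glutamate), with 489, 498 and 353 counts in control and 269, 226 and 230 in severe mice, and the lowest tested was mt-Tr, with 12, 17 and 16 counts in control, 18, 7 and 6 in moderate and 2, 1 and 4 in severe mice. The severe mice lay below all control mice for both. In mt-Tr 1 moderate mouse lay above all control mice by counts. On the TMM scale all moderate mice lay below control for mt-Tr, at 0.568, 0.241 and 0.196 CPM against 0.622 to 0.819. The fitted severe log2 fold change of mt-Tr, -3.65, rests on those few counts. Among the tRNAs tested, the severe changes ran from -3.65 to -1.22 (mt-Tt), and mt-Tt and mt-Ts2 turned to 0.06 relative to the library total. In severe against moderate mice, mt-Tf, mt-Tv, mt-Ty, mt-Tk and mt-Tt were not called.

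Compared per length, in the deposited TPM, the mRNAs and rRNAs kept almost the same order of levels among themselves in all groups. In control mice the mean TPM was 178770 for mt-Rnr2, 45193 for mt-Rnr1, 12446 for mt-Co1, 10994 for mt-Co3, 7057 for mt-Co2, 4603 for mt-Atp6, 3892 for mt-Atp8, 3061 for mt-Nd3, 2259 for mt-Nd1, 1903 for mt-Cytb, 1234 for mt-Nd4, 1038 for mt-Nd2, 744 for mt-Nd5, 662 for mt-Nd6 and 368 for mt-Nd4l. The rRNAs were thus far above the mRNAs, and by TPM mt-Ts1 stood between mt-Rnr1 and mt-Co1. That place is uncertain, because mt-Ts1 is 69 bases long, little more than a read of 50 bases. By counts it had only 2.71 to 2.84 per 100 mt-Co1 counts in control mice, and these reads cannot be told apart. In each neighbouring pair the first gene was higher in all 3 control mice. Between mice the ranges overlapped for mt-Co1 and mt-Co3, for mt-Atp6, mt-Atp8 and mt-Nd3 in turn, for mt-Nd1 and mt-Cytb, and from mt-Nd4 down for each pair. The order changed in severe mice, where mt-Nd5 (435) was above mt-Nd2 (418) in 2 of 3 mice, and their ranges overlapped.

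Respiratory complexes also need nuclear subunits, and 73 of these genes from a fixed list were tested beside the members. In FLExD mice 0 of 73 were called, with a median log2 fold change of 0.14. In moderate mice 37 were lower and 0 higher, with a median of -0.50, and in severe mice 72 were lower and 1 higher, with a median of -1.53. Of all genes, 17.0% were called lower and 24.4% higher in moderate mice, and 27.9% lower and 32.9% higher in severe mice. For complex I, 36 of 36 nuclear subunits were lower in severe mice, among them Ndufs7 (-2.38) and Ndufb4 (-2.20), both subunits of that complex. Of 13 complex IV subunits, 12 were lower, with Cox6a2 (-3.68) and Cox8b (-3.02), the isoforms of striated muscle, at the front. The gene called higher was Cox8a (0.98), the isoform of most other tissues. For complex III 9 of 9 were lower, among them Uqcrc1 and Uqcrfs1 (-1.67), and for ATP synthase 15 of 15, among them Atp5e (-2.07) and Atp5k (-1.68). On the library-total scale only 19 of 73 were lower and 3 higher in severe mice, with a median of -0.23, where 6.42% of all genes were lower and 75.4% higher. On that scale 1 was lower and 11 higher in moderate mice, where the shares of all genes were 4.51% and 52.5%.

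The mitochondrial subunits were low even relative to the nuclear ones in severe mice, and in moderate mice in the sum and in complex IV. There were 2.92, 3.15 and 2.67 mt mRNA counts per nuclear subunit count in control mice, 2.92, 3.32 and 2.79 in FLExD, 2.17, 2.52 and 2.30 in moderate and 2.09, 1.89 and 1.69 in severe mice. Control and FLExD overlapped, moderate mice lay below both, and severe mice lay below moderate. By complex, the ratio for complex I was 1.59, 1.73 and 1.38 in control, 1.29, 1.55 and 1.43 in moderate and 1.16, 1.00 and 0.891 in severe mice. For ATP synthase it was 0.568, 0.644 and 0.514 in control and 0.370, 0.322 and 0.279 in severe mice. Severe mice lay below control for both, and moderate mice overlapped control. The same held for complex III, at 1.18 to 1.38 in control, 0.986 to 1.30 in moderate and 0.616 to 0.773 in severe mice. For complex IV the ratio was 12.2, 12.3 and 11.0 in control, 8.37, 9.004 and 8.92 in moderate and 9.13, 8.46 and 7.38 in severe mice, where both treated groups lay below control and overlapped each other. A ratio of 2 sums of counts needs no scaling between libraries, and it was not tested.

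**Figure D5:**
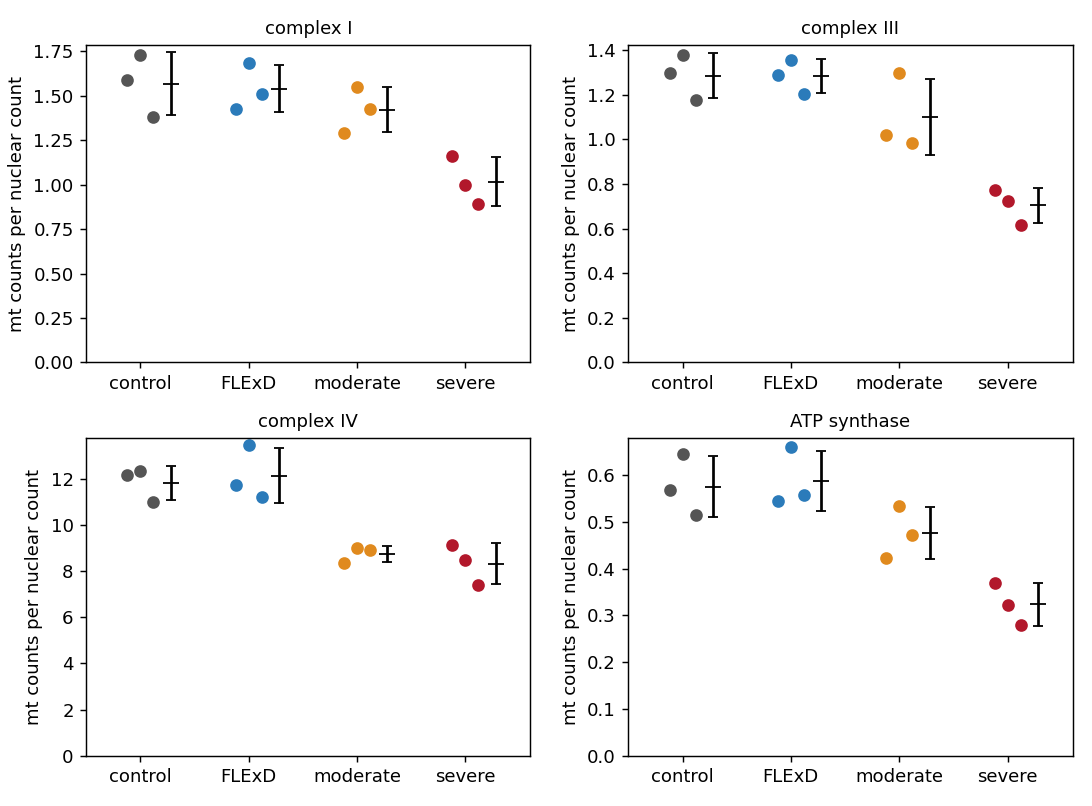
Counts of the mitochondrial mRNAs of each complex per count of its nuclear subunits, for each mouse (points) with the group mean and SD (bars, n = 3). In complex I, complex III and ATP synthase severe mice sit below all control mice, and in complex IV the moderate (8.37 to 9.004) and severe (7.38 to 9.13) mice both sit below control (11.0 to 12.3).

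Other nuclear genes make, process and translate mitochondrial RNA, and the counts of their lists stand against the same shares of all genes. Of 9 tested genes for transcription of mitochondrial DNA, 7 were lower and 0 higher in severe mice, with a median of -0.89. Polrmt, the polymerase, changed by -0.71 and Tfam, which also packages the DNA, by -0.89, but both were above 0 relative to the library total (0.60 and 0.41). Tfb2m, the initiation factor, changed by -1.93 and Mterfd3, of the mTERF family, by -1.75, and they stayed below 0 (-0.62 and -0.44) on that scale. In moderate mice 2 of the 9 were lower and 0 higher, namely Tfb2m (-0.90) and Mterfd3 (-0.99). No gene of this list or of the lists that follow was called in FLExD mice.

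Of 14 genes for replication and upkeep of mitochondrial DNA, 3 were higher and 5 lower in severe mice, where 32.9% and 27.9% of all genes were. Dna2 (2.89), a nuclease and helicase that also acts on nuclear DNA, and Ccdc111 (1.40), a primase and polymerase, were higher, and Endog (-2.56), a mitochondrial nuclease, and Top1mt, the mitochondrial topoisomerase, were lower. Peo1, the helicase Twinkle, changed by -1.37, and Polg, the DNA polymerase, by -0.42, which is under the fold limit. On the library-total scale Polg was at 0.89. The list had 2 higher and 4 lower genes in moderate mice.

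Of 23 genes for processing, polyadenylation and stability of mitochondrial RNA, 14 were lower and 0 higher in severe mice, with a median of -0.65, and 7 were lower in moderate mice. Lrpprc and Slirp, which together stabilise mt mRNAs, changed by -0.91 and -0.72 in severe mice, Fastk, needed for the mt-Nd6 mRNA, by -1.57, and Mtpap, the poly(A) polymerase of mitochondria, by -0.33, under the fold limit. Without TMM factors 18 of the 23 were instead called higher and 0 lower, where 75.4% of all genes were called higher. On that scale Lrpprc was at 0.39, under the fold limit, Slirp at 0.58 and Mtpap at 0.97, while Fastk stayed at -0.28. For modification of the rRNAs and ribosome assembly 9 of 14 genes were lower in severe mice. The list for translation also had 9 of 14 lower, with Taco1 (-2.05), which promotes translation of mt-Co1, and Mtrf1 (-1.86), a release factor, at the front. That list also holds Cox15 and Oxa1l, which are not translation factors. Its median in severe mice was -0.84, and it was 0.46 relative to the library total.

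Among 8 coactivators and transcription factors that drive mitochondrial gene programs, 1 was higher and 2 were lower in severe mice, where 32.9% and 27.9% of all genes were. Pprc1 (0.62) was higher, Esrra (-1.06) and Ppargc1b (-0.74) were lower, and Ppargc1a (PGC-1alpha) was at -0.40 in severe mice, under the fold limit, and at 0.18 in moderate mice. Of 10 markers of mitochondrial mass, 7 were lower in severe mice, including citrate synthase (Cs, -1.97) and the outer membrane channel Vdac1 (-2.54), which stayed below 0 relative to the library total (-0.67 and -1.24). The list's median was -1.18, which became 0.12 relative to the library total.

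The cells in the muscle changed as well, and in bulk RNA fewer cells of a type and less RNA per cell cannot be told apart. The marker calls below stand against 17.0% of all genes called lower and 24.4% higher in moderate mice. For severe mice these shares were 27.9% and 32.9%. Of 8 genes of skeletal muscle fibers, 7 were lower in moderate and 8 in severe mice, and their summed share of counts was 9.57% to 13.01% in control, 8.81% to 11.8% in FLExD, 6.77% to 7.60% in moderate and 1.73% to 2.87% in severe mice. Of 7 slow fiber genes, 2 were lower in moderate and 3 in severe mice, and their share ran from 0.0358% to 0.193% in control, 0.0521% to 0.212% in FLExD, 0.0400% to 0.0898% in moderate and 0.0685% to 0.0939% in severe mice. Of 7 macrophage genes, 7 were higher in both treated groups, and their share was 0.00722% to 0.00895% in control, 0.00689% to 0.00874% in FLExD, 0.0475% to 0.0622% in moderate and 0.170% to 0.195% in severe mice. All 3 genes of regenerating fibers were higher in both treated groups, and their share was 0.00114% to 0.00158% in control, 0.0344% to 0.0647% in moderate and 0.210% to 0.318% in severe mice. Of 6 fibroblast genes, 3 were higher in moderate mice, and 4 were higher and 1 lower in severe mice, and their share was 0.0518% to 0.155% in control, 0.300% to 0.326% in moderate and 0.835% to 1.18% in severe mice. All 4 endothelial genes were lower in severe mice on the TMM scale, while their share was 0.00934% to 0.0130% over all 12 mice. All 4 erythroid genes tested were lower in severe mice, with a share of 0.0246% to 0.0307% in control and 0.00559% to 0.0133% in severe mice. None of the markers was at 0 in any mouse. In severe mice the skeletal muscle fiber and erythroid shares were thus lower than in control mice, as the mitochondrial share was. The macrophage, regenerating fiber and fibroblast shares were higher, and the slow fiber share overlapped control. The part of these cell types in the result was not tested.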

How the data were processed

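Poly(A)-selected RNA from 12 muscles, 3 mice in each of 4 groups taken from the labels, was sequenced in single reads of 50 bases. The deposited expected counts per gene, which need not be whole, were made by the authors with RSEM 1.2.4 and Bowtie on merged mouse gene models (mm10), and TopHat 2.0.8b aligned the remaining reads. The deposited TPM are the authors' estimates per length, scaled to a common total. Multiply mapping reads are shared out by RSEM, which touches genes with near-identical copies.

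Expected counts were rounded and tested with edgeR 4.0.16 (quasi-likelihood F-test, robust, TMM, filterByExpr, 4 groups in 1 fit, R 4.3.3) and Benjamini-Hochberg adjustment over 16679 genes. A call required an adjusted p below 0.05 and a log2 change of 0.5 or more in size. The labels name separate mice, so the spread is between animals. Alternatives used RLE factors, the library total, the mt mRNA sum, limma 3.58.1 on log2(TPM + 1), DESeq2 1.42.0, other filters, and each mouse left out. An exact permutation test had been planned for the mt share and the rRNA to mRNA ratio, but sums over members are given without a test. Nuclear copies were found with BLAST 2.17.0 in GENCODE M21 transcripts, and the fit was tested on simulated data. The named genes were all members passing the filter, 9 nuclear genes and up to 2 called genes per list and direction with the largest severe change. The members and lists were chosen with earlier results of these data known. The study's mild model was not analysed here.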

Additional observations from a re-analysis of the deposited data

How the results depend on the processing

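In severe mice most members were called lower than in control under every setting but the mt mRNA pool. In moderate mice most were called lower only with scaling factors, which all take most genes as unchanged. Which scale was used changed the calls most. In moderate against control, 28 members were called lower with TMM, 3 relative to the library total, 0 relative to the mt mRNA pool, 4 with limma on log2(TPM + 1) and 7 with a log2 limit of 1. In severe against control the count was 35, and 5 (2 lower, 3 higher) relative to the pool. In severe against moderate it was 30, 21 relative to the library total, 19 with limma and 4, all higher, relative to the pool. DESeq2 gave 27, 35 and 32 in these comparisons, and the fit without filter gave 23, 37 and 31. Without the control and the FLExD mouse with the largest mt share, an alternative chosen after seeing the data, they were 19, 35 and 32. With each mouse left out the counts were 0 to 0 in FLExD, 21 to 28 in moderate, 35 to 35 in severe and 27 to 30 in severe against moderate, and no member changed sign against its call.

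Relative to the mt mRNA pool, a scale that holds the mRNA sum level by construction, many log2 fold changes turned positive. Of the members called on the TMM scale or on this one these were, in moderate against control, 0.065 for mt-Rnr1, 0.14 for mt-Rnr2, 0.059 for mt-Tm, 0.099 for mt-Nd2, 0.0056 for mt-Tc, 0.057 for mt-Co2, 0.099 for mt-Atp8, 0.067 for mt-Atp6, 0.17 for mt-Nd4, 0.27 for mt-Nd5, 0.21 for mt-Nd6, 0.076 for mt-Te and 0.15 for mt-Cytb. In severe against control they were 0.087 for mt-Tf, 0.28 for mt-Rnr1, 0.45 for mt-Tv, 0.37 for mt-Rnr2, 0.68 for mt-Ti, 0.25 for mt-Tq, 0.12 for mt-Tm, 0.20 for mt-Ta, 0.37 for mt-Tc, 0.63 for mt-Ty, 0.062 for mt-Co1, 0.072 for mt-Co2, 0.023 for mt-Co3, 0.63 for mt-Th, 0.96 for mt-Ts2, 0.59 for mt-Tl2, 0.22 for mt-Nd5, 0.073 for mt-Nd6, 0.24 for mt-Te, 0.94 for mt-Tt and 0.52 for mt-Tp. In severe against moderate they were 0.21 for mt-Rnr1, 0.73 for mt-Tv, 0.23 for mt-Rnr2, 0.34 for mt-Ti, 0.061 for mt-Tm, 0.69 for mt-Ta, 0.013 for mt-Tn, 0.37 for mt-Tc, 1.01 for mt-Ty, 0.13 for mt-Co1, 0.065 for mt-Ts1, 0.015 for mt-Co2, 0.056 for mt-Co3, 0.072 for mt-Tg, 0.37 for mt-Th, 0.41 for mt-Ts2, 0.12 for mt-Tl2, 0.17 for mt-Te, 1.02 for mt-Tt and 0.16 for mt-Tp. Members called on neither scale also turned, among them mt-Tq to 0.67 in moderate mice, and mt-Tk to 0.68 in severe against moderate. Relative to the library total, of the called members, mt-Nd5 turned to 0.057 in moderate mice, mt-Ts2 to 0.061 and mt-Tt to 0.063 in severe mice, and mt-Ta to 0.015 in severe against moderate, where limma also gave 0.0025 for mt-Ta. The cause was not tested.

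The difference in mt share (percentage points) was -0.03 to 4.82 in FLExD, -3.86 to 0.75 in moderate, -11.8 to -7.18 in severe and -8.52 to -7.29 in severe against moderate with each mouse left out. With the 20 largest other genes left out of the total it became -7.05, -20.3 and -13.3 in the last 3 comparisons. Without mt-Rnr2 it was -4.20 in severe mice and -3.02 in severe against moderate. The log2 rRNA to mRNA ratio differed by -0.13 to -0.08, 0.10 to 0.19, 0.33 to 0.39 and 0.18 to 0.26 with each mouse left out, and by 0.32 in severe against moderate without mt-Co1. No paired analysis was possible because the groups share no mouse numbers. Counts under about 20, as for mt-Tr, limit what could be seen for the rarest tRNAs.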
